A study of Homo sapiens with 6 samples.

Results

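The genes described here were 10 regulators and markers of the epithelial-mesenchymal transition (EMT), taken by gene symbol from the 58884 rows of the expression matrix. They were the transcription factors ZEB1, ZEB2, SNAI1, SNAI2 and TWIST1, the intermediate filament protein vimentin (VIM), the epithelial surface protein EPCAM, the epithelial splicing regulators ESRP1 and ESRP2, and the epithelial transcription factor OVOL2. Bulk mRNA was sequenced in 2 lines of human esophageal squamous cell carcinoma (ESCC) cells, KYSE450, whose NRF2 is wild type, and KEAP1null-KYSE450, derived from it, with 3 libraries each. Both lines were untreated and grown in RPMI1640 with fetal bovine serum. KEAP1null-KYSE450 was made with CRISPR-Cas9 and a guide to exon 2 of KEAP1, the adaptor that marks NRF2 for degradation, and is 1 monoclonal line, so that clonal differences and loss of KEAP1 cannot be told apart. The comparison asked how the transcriptome of an ESCC line differed when KEAP1 was lost. Nothing in the labels says that the libraries of a line came from separate cultures, and the p-values therefore measure only the spread between these libraries, which may be technical.

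In EMT, epithelial cells lose apical polarity and cadherin junctions and gain migratory, mesenchymal features. The ZEB, SNAIL and TWIST proteins bind E-box motifs and repress epithelial genes such as CDH1. The ZEB factors and the miR-200 family repress each other, and OVOL2 and the GRHL factors hold the epithelial state, in part by repressing ZEB1. ESRP1 and ESRP2 direct the epithelial splice forms of genes such as FGFR2 and CD44. Intermediate states, in which epithelial and mesenchymal genes are expressed side by side, are known in squamous carcinomas.

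Values are normalized counts, which are reads divided by 1 size factor per library, and a difference between the lines is a log2 fold change on the scale of log2(normalized count + 1), positive where KEAP1null-KYSE450 was higher. Normalized totals lay between 54829313 and 57380170 per library, and 3 reads were worth 2.77 to 3.21 normalized counts. Across the 16701 genes tested, the correlation of log2 values was 0.984 to 0.989 between libraries of a line and 0.924 to 0.936 between lines. KEAP1 mRNA itself lay between 5146 and 5760 in KYSE450 and between 4906 and 5737 in KEAP1null-KYSE450, and an edit in the coding sequence is not seen in counts per gene. The NRF2 targets NQO1 and GCLC were higher in all KEAP1null-KYSE450 libraries, with log2 fold changes of 2.70 and 3.98, while NFE2L2 mRNA, which encodes NRF2, was lower by a log2 fold change of -0.47.

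ZEB1 lies on the plus strand of chromosome 10 in hg38, from 31318495 to 31529814, with 9 exons in its main transcript. The window at one of its RefSeq start sites is shown because ZEB1 changed most among the 10 genes and because the antisense gene ZEB1-AS1 starts in the same stretch. Capitals mark the E-box CAGGTG or its reverse complement CACCTG, to which the ZEB and SNAIL proteins can bind.
ZEB1 window chr10:31318966-31319265, plus strand, RefSeq on GRCh38.p14: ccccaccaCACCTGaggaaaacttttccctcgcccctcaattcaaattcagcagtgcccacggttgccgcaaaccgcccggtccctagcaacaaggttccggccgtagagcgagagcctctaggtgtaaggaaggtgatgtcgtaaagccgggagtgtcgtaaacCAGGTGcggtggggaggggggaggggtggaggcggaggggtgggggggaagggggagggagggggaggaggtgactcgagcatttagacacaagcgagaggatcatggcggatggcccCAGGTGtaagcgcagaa
This window held 3 E-box matches, counting both strands, and 0 matches to TGACNNNGC or its reverse complement GCNNNGTCA, the core of the antioxidant response element through which NRF2 acts. Of 35116 RefSeq windows of this length, 20.6% held at least 1 E-box match, 0.635% held 3 or more, and 13.3% held the antioxidant response element core. It was the richest in E-boxes of the 7 ZEB1 windows in the table, since 1 other held 1 match and the remaining 5 held 0. The share of 0.635% is for single windows and not for the richest of 7. The ZEB1 window from 31320304 to 31320603, which shared 206 bases with another ZEB1-AS1 window, held 0 E-box matches. The antioxidant response element core was found once in the ZEB1 window from 31319518 to 31319817. It was also found once in the window of ZEB1-AS1, read from the minus strand from 31319046 to 31319345, which shared 220 bases with the window shown. Windows of VIM and ZEB2 held 0 matches to either motif, and 3 of the 10 genes had a window in the RefSeq table. A match is a description of the letters and not of binding.

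**Figure D1:**
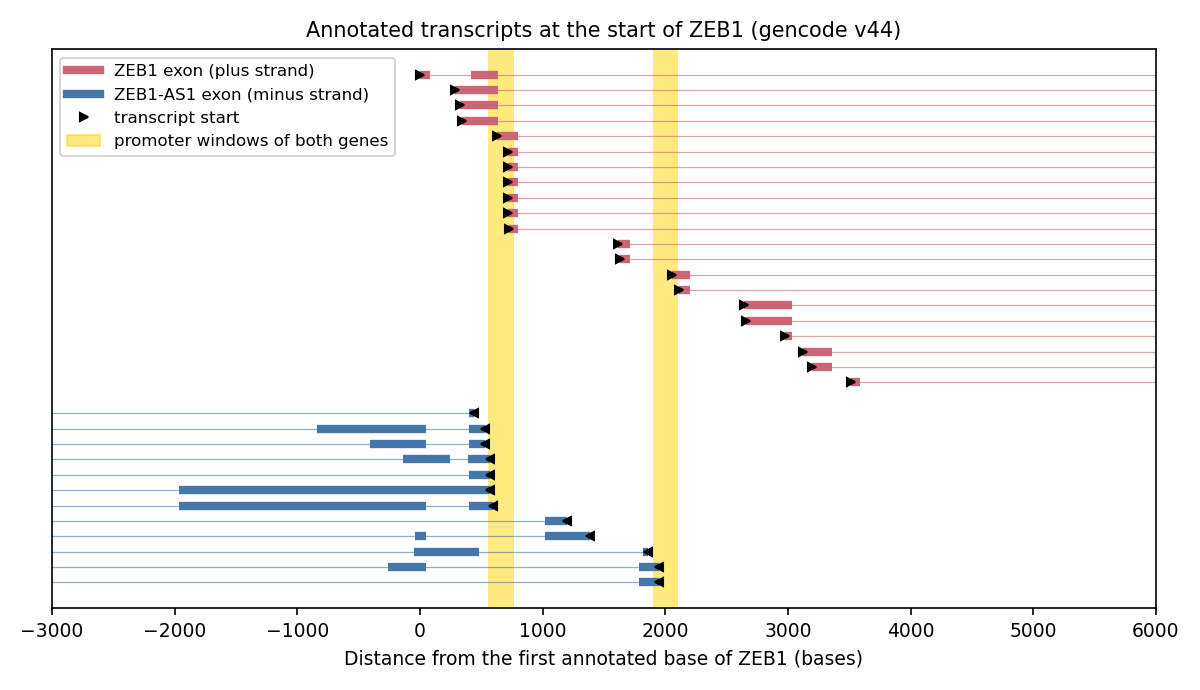
Exons of the annotated ZEB1 transcripts (plus strand) and ZEB1-AS1 transcripts (minus strand) in gencode v44 by distance in bases from the first annotated base of ZEB1. 21 ZEB1 transcripts started within 3515 bases, the 12 ZEB1-AS1 transcripts started 437 to 1952 bases into ZEB1, and the shaded bars mark the 220 and 206 bases where RefSeq promoter windows of both genes overlap.

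The mature miR-200 sequences are shown for the seeds (bases 2 to 8, in capitals) by which the family recognises ZEB1 and ZEB2. They are RefSeq sequences on GRCh38.p14. The first 3 share the seed AAUACUG, and the last 2 share AACACUG.
hsa-miR-200b-3p: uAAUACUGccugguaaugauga
hsa-miR-200c-3p: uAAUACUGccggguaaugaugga
hsa-miR-429: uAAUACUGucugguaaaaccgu
hsa-miR-200a-3p: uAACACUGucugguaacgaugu
hsa-miR-141-3p: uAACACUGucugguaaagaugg
The 3′ UTR of the main ZEB1 transcript, 2540 bases long, held 6 matches to the first seed (CAGTATT) and 3 to the second (CAGTGTT). Only 0.0104% of 19253 annotated 3′ UTRs held as many matches to the first seed, while 16.2% held at least 1. For the second seed these shares were 1.01% and 18.2%. The shares cover 3′ UTRs of every length, and longer ones can hold more matches by length alone. The 3′ UTR of ZEB2, at 5370 bases, held 5 and 4 matches. One site of each kind in ZEB1 is given, numbered from the first base of the 3′ UTR, with the match in capitals.
ZEB1 site at base 369: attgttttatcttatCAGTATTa
ZEB1 site at base 782: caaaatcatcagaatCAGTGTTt
Mature miRNAs were not measured in these libraries.

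Among the 10 genes, ZEB1 rose from near the detection limit, SNAI2 rose, SNAI1, ESRP2, OVOL2 and ESRP1 fell, and VIM, TWIST1 and EPCAM did not pass the test. A gene was called when its adjusted p was under 0.05 and its log2 fold change was at least 1 in size (limma with Benjamini-Hochberg adjustment over all genes tested). Of the 9 members tested, 2 were called, ZEB1 higher and SNAI1 lower, beside 18.2% of all genes tested, 12.2% higher and 5.98% lower. By the adjusted p alone, 2 members rose and 4 fell, beside 49.8% of all genes in either direction, 24.3% higher and 25.5% lower. The 3 libraries of each line did not overlap for 6 of the 9, again 2 higher and 4 lower, beside 57.8% of all genes, 28.4% higher and 29.3% lower. The members' counts are given beside these background shares, and nothing particular to the list is read from them. The median log2 fold change of the 9 members was -0.02, and that of all genes was 0.00. Among all called genes 67.2% were higher, which became 51.8% after quantile normalization.

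**Figure D2:**
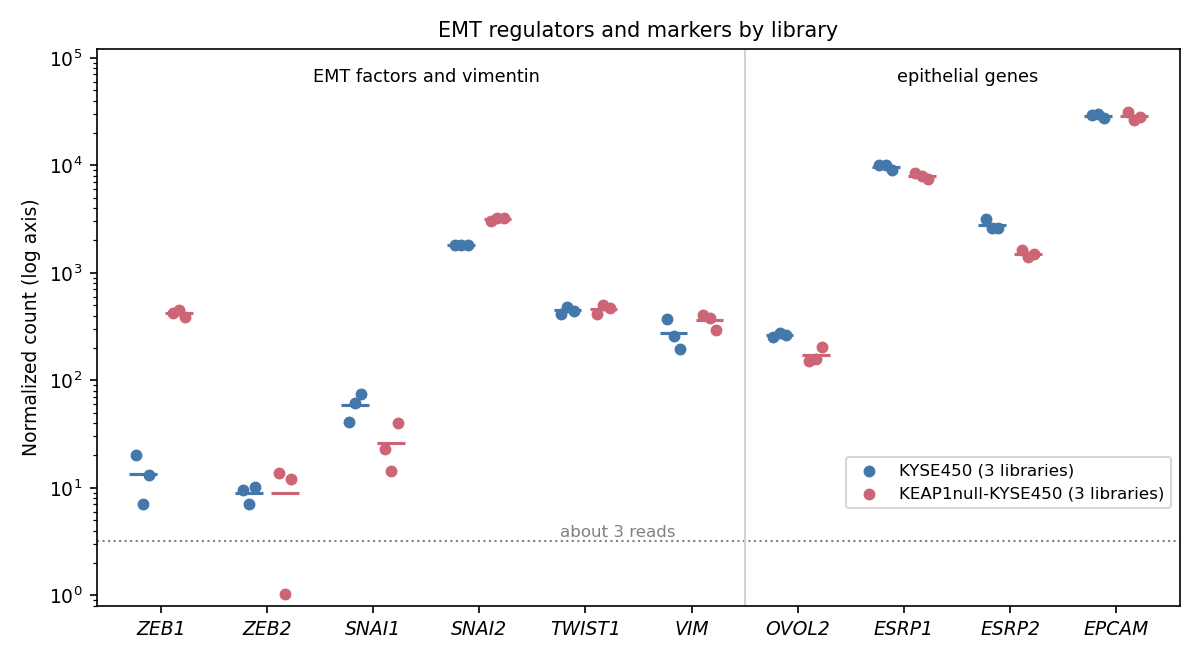
Normalized counts (log axis) of the 10 genes in each library, with KYSE450 in blue, KEAP1null-KYSE450 in red, points for libraries and a line at the mean of 3 libraries. ZEB1 libraries separated widely between the lines, from at most 20.3 to at least 388, while EPCAM, TWIST1, VIM and ZEB2 overlapped, and the dotted line marks about 3 reads.

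ZEB1, a zinc finger and homeodomain repressor of epithelial genes, had 20.3, 7.08 and 13.1 normalized counts in KYSE450, against 423, 455 and 388 in KEAP1null-KYSE450. Every KYSE450 library was low but above the value of 3 reads, and the lines did not overlap. The mean was 13.5 ± 6.63 in KYSE450 and 422 ± 33.1 in KEAP1null-KYSE450 (SD, n = 3 each), a 31.3-fold difference, with a log2 fold change of 4.97 (standard error 0.33, limma adjusted p = 1.16e-07). ZEB1 was called in all 15 alternative fits, where its log2 fold change lay between 4.24 and 5.31.

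ZEB1-AS1, a long noncoding RNA on the opposite strand (chromosome 10, 31206278 to 31320447), rose too. Its normalized counts were 243, 227 and 223 in KYSE450 and 932, 998 and 1121 in KEAP1null-KYSE450. The spread within each line was small against the difference, which gave a log2 fold change of 2.13 (standard error 0.13, limma adjusted p = 6.33e-08) and was called in 15 of 15 alternative fits. Exons of the 2 genes overlap over 396 bases, which is 4.58% of the merged exons of ZEB1 and 10.3% of those of ZEB1-AS1. The NEBNext Ultra kit leaves the strand of origin unmarked, and no use of strand in featureCounts is given, so reads from that stretch cannot be told apart between the pair.

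ZEB2, the paralog of ZEB1, stayed near the detection limit in both lines. It had 9.63, 7.08 and 10.3 normalized counts in KYSE450 and 13.8, 1.02 and 12.1 in KEAP1null-KYSE450. The lines overlapped, and with a mean under 10 over the 6 libraries ZEB2 was left out of the test. ZEB2-AS1 was at 0 in every library, and so was the pseudogene ZEB2P1. In bulk samples, fewer cells that express a gene and less of its RNA per cell cannot be told apart, for ZEB2 or for any other gene here.

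SNAI2 encodes SLUG, which is also a gene of basal squamous keratinocytes. It had 1797, 1825 and 1804 normalized counts in KYSE450 and 3032, 3242 and 3262 in KEAP1null-KYSE450. All 3 KEAP1null-KYSE450 libraries were higher than all KYSE450 libraries, by a log2 fold change of 0.81 (standard error 0.091, limma adjusted p = 1.52e-05), which lay under the fold threshold and passed the adjusted p in 15 of 15 alternative fits.

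SNAI1 encodes SNAIL, an unstable zinc finger repressor of CDH1. It moved the other way at a low level, with 40.6, 61.7 and 74.6 normalized counts in KYSE450 and 23.1, 14.3 and 40.4 in KEAP1null-KYSE450. The highest KEAP1null-KYSE450 library nearly reached the lowest KYSE450 library. The log2 fold change was -1.23 (standard error 0.41, limma adjusted p = 0.0243), and it passed the adjusted p in 8 of 14 alternative fits and was called in 7 of them, with an adjusted p of up to 0.101. The call was lost without KYSE450 library 2 or 3 and without KEAP1null-KYSE450 library 1 or 2. Its pseudogene SNAI1P1 was at 0 apart from 5.10 normalized counts in KEAP1null-KYSE450 library 2.

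TWIST1, a basic helix-loop-helix factor, had 413, 484 and 445 normalized counts in KYSE450 and 414, 504 and 473 in KEAP1null-KYSE450. The libraries overlapped almost fully. Its log2 fold change was 0.05 with a 95% interval of -0.25 to 0.35 (limma adjusted p = 0.79), and its sign changed in 3 of 15 alternative fits.

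VIM, the intermediate filament protein of mesenchymal cells, was present at a moderate count in both lines. KYSE450 libraries held 371, 258 and 196 normalized counts and KEAP1null-KYSE450 libraries 409, 379 and 295. The lines overlapped, since KYSE450 library 1 stood above KEAP1null-KYSE450 library 3. The log2 fold change was 0.43 with a 95% interval of -0.05 to 0.90 (limma adjusted p = 0.125). Without KYSE450 library 1 it was 0.67 (limma adjusted p = 0.0107), the only one of 15 alternative fits in which VIM passed. VIM-AS1 shares 656 bases of exon with VIM on the opposite strand. It had 48.1, 45.5 and 13.1 normalized counts in KYSE450 and 19.4, 11.2 and 18.2 in KEAP1null-KYSE450, which overlapped and did not pass the test (log2 fold change -0.92, limma adjusted p = 0.159). Of 7 filament relatives and linkers of vimentin, 4 were tested and 0 were called or passed the adjusted p, beside 18.2% and 49.8% of all genes. So few genes give no result about the list. Desmin (DES) had at most 1.02 normalized counts and GFAP was at 0.

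EPCAM, an adhesion protein of epithelial cells, had the highest count of the 10 genes in every library. It had 29154, 30245 and 27490 normalized counts in KYSE450 and 31383, 26341 and 27953 in KEAP1null-KYSE450. The libraries of the 2 lines were interleaved. The log2 fold change was -0.02 with a 95% interval of -0.24 to 0.20 (limma adjusted p = 0.87), and its sign changed in 6 of 15 alternative fits, between -0.09 and 0.18.

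ESRP2 fell and ESRP1 fell slightly. ESRP2 had 3167, 2616 and 2600 normalized counts in KYSE450 and 1616, 1406 and 1505 in KEAP1null-KYSE450. The lines were well apart, by a log2 fold change of -0.88 (standard error 0.11, limma adjusted p = 3.49e-05) that passed the adjusted p in 15 of 15 alternative fits. Exons of NFATC3 overlap 227 bases of ESRP2, or 4.37% of its merged exons, on the opposite strand, and NFATC3 had 1712 to 2565 normalized counts. On the same strand, a gene without a symbol shares 113 bases of exon with ESRP2. That gene had 328 to 395 normalized counts in KYSE450 and 243 to 266 in KEAP1null-KYSE450.

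ESRP1 had 9966, 10054 and 9127 normalized counts in KYSE450 and 8504, 8004 and 7521 in KEAP1null-KYSE450. The lines did not overlap but lay close. Its log2 fold change was -0.28 (standard error 0.092, limma adjusted p = 0.0233), it passed the adjusted p in 8 of 15 alternative fits, and after quantile normalization it was -0.07 (limma adjusted p = 0.501).

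OVOL2, a zinc finger factor that represses EMT genes, had 255, 273 and 262 normalized counts in KYSE450 and 149, 156 and 205 in KEAP1null-KYSE450. All KEAP1null-KYSE450 libraries were lower, with a log2 fold change of -0.64 (standard error 0.18, limma adjusted p = 0.00957), and the adjusted p was passed in 15 of 15 alternative fits. SNX5, with 9016 to 10060 normalized counts, shares 59 bases of exon with OVOL2 on the same strand.

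**Figure D3:**
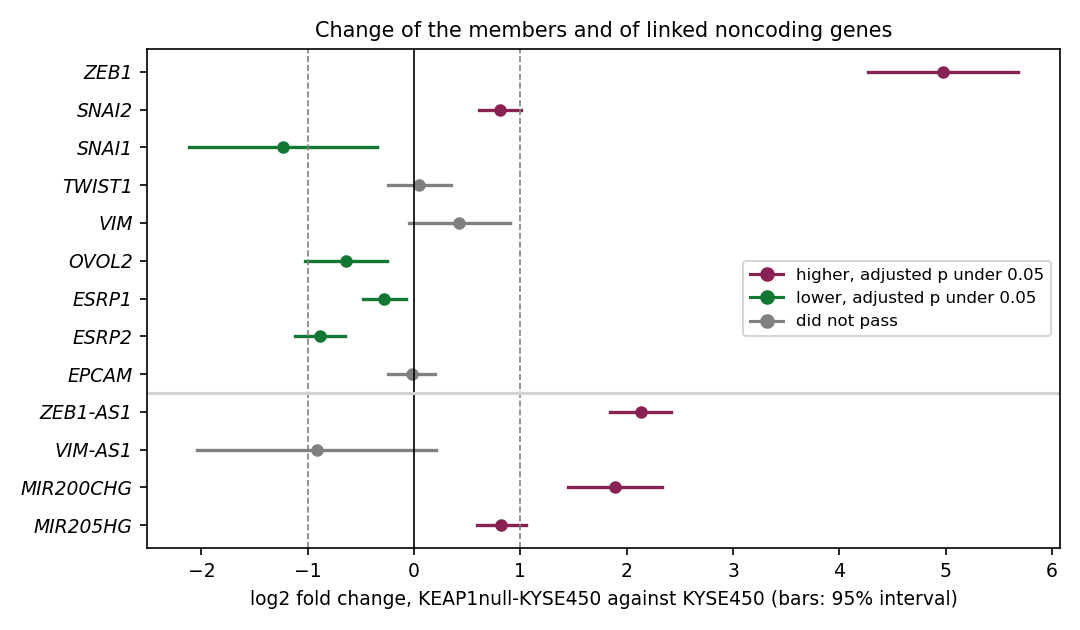
Log2 fold change of KEAP1null-KYSE450 against KYSE450 for the 9 tested genes and 4 linked noncoding genes, with points at the limma estimate, bars for the 95% interval over 3 libraries per line and dashed lines at the fold threshold. ZEB1 stood apart at 4.97, ZEB1-AS1 and MIR200CHG followed at 2.13 and 1.89, and the intervals of TWIST1, VIM, EPCAM and VIM-AS1 included 0.

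Levels between genes were compared per kilobase of merged exon in gencode v44, as normalized counts per kilobase. In KYSE450 the order of the mean levels was EPCAM at 11900, ESRP1 at 1990, SNAI2 at 551, ESRP2 at 539, TWIST1 at 224, OVOL2 at 119, VIM at 53.1, SNAI1 at 34.6, ZEB1 at 1.56 and ZEB2 at 0.344. The neighbours SNAI2 and ESRP2 overlapped in their libraries, and so did VIM and SNAI1, while the other neighbours did not. In KEAP1null-KYSE450 the first 7 places were held by the same genes, with SNAI2 at 969 and ESRP2 at 291 no longer overlapping, and with OVOL2 at 77.2 overlapping VIM at 69.7. ZEB1, at 48.8 per kilobase, then stood above SNAI1 at 15.2, while ZEB2 stayed last at 0.344. Even after its rise, the level of ZEB1 per kilobase was thus below those of VIM, TWIST1 and SNAI2 in the same cells.

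Host transcripts of miR-200c, miR-141 and miR-205 rose as well, and no host transcript of the cluster of miR-200b, miR-200a and miR-429 was among the genes listed. MIR200CHG, the host of miR-200c and miR-141, had 63.1, 94.0 and 74.6 normalized counts in KYSE450 and 287, 298 and 271 in KEAP1null-KYSE450. The lines were far apart, with a log2 fold change of 1.89 (standard error 0.20, limma adjusted p = 9.99e-06), called in 15 of 15 alternative fits. MIR205HG, the host of miR-205, lay between 4411 and 5093 in KYSE450 and between 7582 and 9558 in KEAP1null-KYSE450. Its log2 fold change of 0.82 lay under the fold threshold. The stem-loop gene MIR205 had 13.9, 19.2 and 30.8 normalized counts in KYSE450 and 27.7, 43.8 and 31.3 in KEAP1null-KYSE450. The lines overlapped for MIR205, which did not pass the test (log2 fold change 0.71, limma adjusted p = 0.169). MIR200CHG and ZEB1 mRNA were thus both higher in all 3 KEAP1null-KYSE450 libraries. The stem-loop genes of the miR-200 family had at most 5.54 normalized counts in any library and were not tested, and host transcript counts are not counts of mature miRNA.

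Other EMT transcription factors did not move in one direction. Of 12 listed, 9 were tested, 2 were called higher and 2 lower, beside 12.2% and 5.98% of all genes, and the median log2 fold change was -0.24, beside 0.00 for all genes tested. TCF4, an E-box binding partner of TWIST proteins, went from 1308 to 1664 normalized counts in KYSE450 to 3594 to 3870 in KEAP1null-KYSE450 (log2 fold change 1.30). TWIST2 went the other way, from 431 to 506 down to 114 to 152 (log2 fold change -1.88), as did FOXQ1 at -1.01, which was called in 10 of 15 alternative fits. GSC, a homeobox factor, had 4.28, 0 and 3.73 normalized counts in KYSE450 and 11.1, 31.6 and 26.2 in KEAP1null-KYSE450, and its log2 fold change of 2.92 rests on few reads. It was called in 12 of 14 alternative fits, and the call was lost with DESeq2 (adjusted p = 0.0866) and with limma without KEAP1null-KYSE450 library 2.

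All 11 transcription factors listed for epithelial identity were tested, and 8 fell by the adjusted p while 0 rose, beside 25.5% and 24.3% of all genes. Called lower were 3 of them, beside 5.98% of all genes, and the median log2 fold change was -0.89, beside 0.00. The list was written with earlier results of these data known, so its counts are a description only. The called genes were FOXA2 at -1.66, KLF4 at -1.60 and GRHL1 at -1.42. OVOL1, the paralog of OVOL2, was lower by a log2 fold change of -0.94 (limma adjusted p = 0.00336). GRHL2, known as a direct repressor of ZEB1, had 4596 to 5589 normalized counts in KYSE450 and 4951 to 5544 in KEAP1null-KYSE450, with a log2 fold change of 0.06 (limma adjusted p = 0.63).

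Genes of epithelial junctions and of the epithelial surface went both ways. All 27 were tested, and 5 rose and 14 fell by the adjusted p, beside 24.3% and 25.5% of all genes. Of these, 1 was called higher and 3 lower, beside 12.2% and 5.98%, and the median log2 fold change was -0.38. CDH1, the gene of E-cadherin, had 11684, 8688 and 7567 normalized counts in KYSE450 and 6929, 4534 and 4407 in KEAP1null-KYSE450. All KEAP1null-KYSE450 libraries were lower, by a log2 fold change of -0.82 (limma adjusted p = 0.00218). The tight junction gene CLDN7 was the lowest of the list at -3.23, from 2640 to 3012 down to 282 to 330 normalized counts, and CRB3, a polarity gene, and MARVELD3, a tight junction gene, were called lower at -1.21 and -1.05, the latter in 12 of 15 alternative fits. EPN3, an endocytic adaptor, was called higher at 1.40. KRT8 and KRT18, the simple epithelial keratins, rose by log2 fold changes of 0.81 and 0.71.

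Mesenchymal markers were also split. Of 23 listed, 19 were tested, and 2 were called higher and 8 lower, beside 12.2% and 5.98% of all genes, with a median log2 fold change of -0.48. CDH2, the gene of N-cadherin, had 476, 264 and 375 normalized counts in KYSE450 and 1194, 707 and 779 in KEAP1null-KYSE450, a log2 fold change of 1.27 (limma adjusted p = 5.39e-04). ACTA2, the smooth muscle actin gene, was called higher at 1.51. Called lower were TAGLN, an actin-binding gene, at -4.45, the receptor tyrosine kinase AXL at -4.14, the matrix gene TNC at -3.47 and the matrix protease MMP2 at -2.66. AXL had 961 to 1338 normalized counts in KYSE450 and 57.5 to 74.7 in KEAP1null-KYSE450. FN1, the fibronectin gene, did not pass the test, with 97.3, 52.6 and 56.9 normalized counts against 142, 77.5 and 65.6 (log2 fold change 0.43, limma adjusted p = 0.30).

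**Figure D4:**
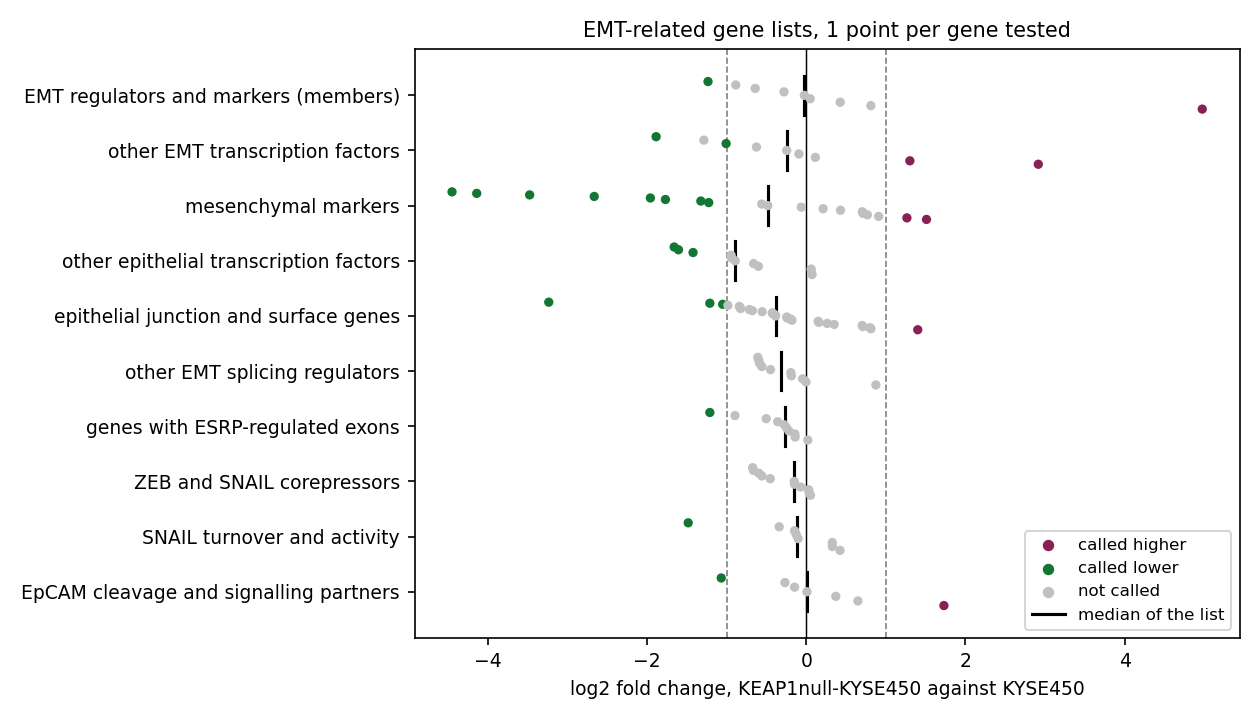
Log2 fold change of each tested gene in 10 EMT-related lists, with 1 point per gene, black bars at the list median and dashed lines at the fold threshold. ZEB1 at 4.97 lay at the far right of the members, while most called genes among the mesenchymal markers lay on the left, down to TAGLN at -4.45.

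Genes that work with the members were counted against the same background, in which 18.2% of all genes were called, and 24.3% rose and 25.5% fell by the adjusted p. Of 10 other splicing regulators of EMT, 0 were called, 1 rose by the adjusted p (RBM47, log2 fold change 0.88) and 5 fell, with a median of -0.32. Of 10 genes with exons regulated by the ESRP proteins, 4 fell and 0 rose, and FGFR2 was called lower at -1.21, from 2238 to 3870 down to 1141 to 1709 normalized counts. These values count all transcripts of a gene, and splice forms are not seen in them. Of 11 corepressors used by the ZEB and SNAIL proteins, 0 were called and 5 fell by the adjusted p, with a median of -0.15. Of 8 genes that set the turnover or activity of SNAIL, 3 rose and 2 fell by the adjusted p, and the lysyl oxidase family gene LOXL2 was called lower at -1.48. Among 7 partners of EPCAM cleavage and signalling, LEF1, a transcription factor of the WNT pathway, was called higher at 1.73 and PSEN2, a subunit of gamma-secretase, lower at -1.07.

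Apart from COL1A1, markers of other cell types were low. Of 8 fibroblast markers only COL1A1 passed the filter, at 607 to 839 normalized counts in KYSE450 and 333 to 431 in KEAP1null-KYSE450, and DCN had at most 2.04. The summed level of the fibroblast list was 624 to 856 in KYSE450 and 354 to 437 in KEAP1null-KYSE450. Most of that sum was COL1A1, so it gives no direction for the other markers, and its part in the results was not tested. The endothelial list of 5 genes summed to 59.9 to 75.8 and 48.0 to 70.6, with PECAM1 at 0 in every library. CDH5 was called lower, from 10.7 to 28.9 normalized counts in KYSE450 to 1.01 to 3.06 in KEAP1null-KYSE450. Those KEAP1null-KYSE450 values lay at or under the value of 3 reads, so its log2 fold change of -2.77 gives a bound only. VWF, the other endothelial gene tested, had 35.4 to 53.6 normalized counts in KYSE450 and 39.7 to 67.6 in KEAP1null-KYSE450. It did not pass the test (log2 fold change 0.25, limma adjusted p = 0.54). The leukocyte list of 6 genes summed to 1.86 to 19.2 and 9.18 to 13.1. The squamous markers of the labelled cell type were all detected in both lines, and all 8 passed the adjusted p, 2 higher and 6 lower, beside 24.3% and 25.5% of all genes. KRT5 was called higher at 1.46, and KRT14, KRT6A and PKP1 were called lower at -6.09, -4.70 and -2.95.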

How the data were processed

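RNA sequencing of 3 KYSE450 and 3 KEAP1null-KYSE450 libraries was used, grouped by the labels. By the methods and the submitters' processing notes, the authors prepared libraries with a NEBNext Ultra kit, aligned quality-filtered reads to hg38 with STAR (version 2.6.90c), counted them per gene with featureCounts (version 1.5.1) and normalized the matrix. The deposited values are normalized counts, used here as a signal per gene and library, with 1 size factor per library. The methods name a RefSeq annotation while rows carry Ensembl identifiers, and 273 of the 58884 rows have no symbol. No column belonged to another sample. Whole reads could be recovered in 4 libraries (53027359 to 61543442 reads, 100% of values). Among these 4, libraries of the same line were not duplicates of each other, and the remaining libraries were not in that check. The floor of 3 reads covers counting error only.

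Lines were compared two-sided in R 4.3.3 with limma version 3.58.1 (linear model, moderated with a trend) on log2 values with a pseudocount of 1, for genes with a mean of at least 10, with Benjamini-Hochberg adjustment over all 16701. The deposited values are not counts, so the DESeq2 test of the methods was not the main one. The alternatives changed the pseudocount to 0.1 or 10, dropped the filter or raised it to a mean of 100, rescaled libraries to equal totals, or used quantile normalization, eBayes without trend, each library left out, no fold threshold, and, on the recovered reads, edgeR (version 4.0.16, quasi-likelihood with TMM) and DESeq2 (version 1.42.0). The tests were tried on simulated data first. Libraries are numbered by their order within a line, since the columns carry no replicate number.

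The members and gene lists were chosen with earlier results of these data known. All members were named, with KEAP1, NFE2L2, NQO1 and GCLC, the antisense neighbours, up to 4 called genes per direction in each list, and CDH1, CDH2, FN1, GRHL2, OVOL1 and MIR200CHG. Other genes were named after their values were seen, as examples. Positions and exon lengths came from gencode v44 on hg38, and sequences from RefSeq tables and from hg38. A marker gene of the leukocyte list is not reported here.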

Additional observations from a re-analysis of the deposited data

How the results depend on the processing

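ZEB1, SNAI2, ESRP2 and OVOL2 kept their direction and passed the adjusted p in each of the 15 other fits. Of 134 alternative values of the 9 tested genes, 111 kept their direction and side of the threshold, 13 no longer passed, 1 newly passed and 9 changed sign. The sign changes were TWIST1, at -0.029 after quantile normalization and from -0.011 to 0.129 with each library left out (-0.006 without KYSE450 library 1), and EPCAM, at 0.009 after rescaling to equal totals, 0.176 after quantile normalization, 0.061 with edgeR, 0.033 with DESeq2 and from -0.093 to 0.033 with each library left out (0.009 without KYSE450 library 2). ESRP1 did not pass in 7 fits, between -0.28 and -0.07. The 1 member called lower, SNAI1, became 0 with a pseudocount of 10, without the filter, with a mean of at least 100 (where SNAI1 was not tested) and with eBayes without trend, and leaving out each library gave 0 to 1. The cause was not tested.

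With no fold threshold, 2 members were higher and 4 lower, 4060 genes were higher and 4251 lower, and the fixed lists gave 22 genes higher and 51 lower in place of 8 and 19. A mean of at least 100 left 875 genes called higher in place of 2045. edgeR called 2698 genes and DESeq2 2500, against 3044 with limma. The median of all genes moved by less than 0.1 in every alternative fit. No paired analysis was possible because the columns carry no replicate number. Depth limited ZEB1 in KYSE450, ZEB2 and GSC, which had few reads.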

Other observations

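Of the genes in the lists, 6 had a mean under 10 and were not tested, although their values did not overlap between the lines. They were chosen after their values were seen. SPARC, a secreted matrix glycoprotein often used as a mesenchymal marker, had 0, 2.02 and 0.932 normalized counts in KYSE450, all at or under the value of 3 reads, and 21.2, 12.2 and 14.1 in KEAP1null-KYSE450. FOXC2, a forkhead factor linked to EMT, had 5.35, 12.1 and 18.7 in KYSE450 and 1.85, 1.02 and 1.01 in KEAP1null-KYSE450. LUM, a matrix proteoglycan gene from the fibroblast list, had 6.42, 14.2 and 14.0 in KYSE450 and 0 in each KEAP1null-KYSE450 library. LYZ, the lysozyme gene from the leukocyte list, had 0, 3.03 and 0 in KYSE450 and 10.2, 4.08 and 9.08 in KEAP1null-KYSE450. The stem-loop gene MIR429 had 1.07, 1.01 and 0.932 in KYSE450 and 5.54, 3.06 and 5.04 in KEAP1null-KYSE450, while MIR141 was at 0 in KYSE450 and at 0.923, 1.02 and 1.01 in KEAP1null-KYSE450, under the value of 3 reads in both lines. No fold is given for these genes.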
